A study of Mus musculus with 4 samples.

Results

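The genes of the vessel wall described here are 10 genes of smooth muscle cells and pericytes, taken by symbol from the 24454 genes in the count table of P7 mouse hearts and compared for *miR-128*OE against Ctrl. They were listed as markers of these cells and not by a cut on their values, although earlier results of these data were known when they were chosen. All 10 passed the filter on low counts. Smooth muscle cells and pericytes are the mural cells, which sit around the endothelium of vessels. Smooth muscle cells of arteries contract when a kinase phosphorylates the light chain of smooth muscle myosin, which then pulls on actin filaments, and serum response factor (SRF) with its partner myocardin drives many of their contractile genes through a DNA element called the CArG box. Pericytes lie on capillaries and are drawn there by PDGF-B, which endothelial cells release, while Notch signals from the endothelium keep both kinds of mural cell mature. In the developing heart *Acta2* is not restricted to vessels, since immature cardiomyocytes also make this actin.

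RNA-seq was performed on total RNA of hearts at P7, with 2 Ctrl libraries (WH7 and WH8) and 2 *miR-128*OE libraries (WH9 and WH10). Per the study's text, Ctrl mice carried *miR-128*TetRE alone, which is *miR-128* behind a tetO promoter knocked into the Rosa26 locus, and *miR-128*OE mice carried *α-MHC*-tTA as well as *miR-128*TetRE, both kept in the C57BL/6 background. In this Tet-off system the transgene comes on when doxycycline is withdrawn, and the *α-MHC* promoter limits it to cardiomyocytes, so that mural cells were not the cells targeted. The labels do not give the doxycycline schedule of these mice or say that the libraries of a group came from separate animals, and p-values then measure only the spread between these samples, which may be technical. Library totals ranged from 8096870 to 14359838 counts, and the lowest count of any of the 10 genes in any library was 111. The table counts no mature miRNA, and of the precursor genes *Mir128-1* had 0 counts in every library, while *Mir128-2* had 0 in both Ctrl libraries but 2 and 10 in those of *miR-128*OE. *Xist* had 14543 and 11339 counts in Ctrl hearts, against 94 and 132 in *miR-128*OE hearts, and the Y-linked *Ddx3y* had 13 and 7 against 1442 and 1768. The condition therefore coincides with the sex of the mice, and the effects of condition and sex cannot be told apart at any gene below. All 10 genes lie on autosomes.

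The sequence of the miRNA and its matches in these genes are given because its seed, bases 2 to 8, is what pairs with a target mRNA. The seed is in capitals, and the sequence is that of RefSeq on GRCm38.p6.
miR-128-3p: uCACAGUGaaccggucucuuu
Matches to its reverse complement (CACTGTG), or to the first 6 bases of that seed followed by an A (ACTGTGA), were searched on the sense strand of the 3′UTR of each gene (the longest of its annotated ones). Such a match was found in 2 of the 10 genes, *Acta2* and *Cspg4*, and in 31.0% of 13457 tested genes with a 3′UTR. Both matches are of the second kind, and they are shown in capitals with the bases around them.
Acta2: agcacacaACTGTGAacgttttg
Cspg4: gtcctggaACTGTGAccttagat
The match in *Acta2* lies in exon 9 on the minus strand of GRCm38, at chr19:34241632-34241638, within a 3′UTR of 577 bases. The match in *Cspg4* lies in exon 10 on the plus strand, at chr9:56899175-56899181, within a 3′UTR of 980 bases. The 3′UTRs of the other 8 genes, of 325 bases in *Smtn* to 3473 bases in *Rgs5*, held no such letters. A match is a description of the letters and not evidence of binding.

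The 10 genes did not move as one group. *Acta2*, smooth muscle α-actin, was 1.92-fold higher in *miR-128*OE hearts and *Rgs5*, a pericyte regulator of G-protein signaling, was 1.22-fold higher, while *Myh11*, the smooth muscle myosin heavy chain, was lower, at 0.642 of the Ctrl mean. Of the 10 genes, 2 were higher and 1 was lower at an adjusted p-value under 0.05 from edgeR's quasi-likelihood test, and 7 did not pass. Over all 14266 genes tested, 31.5% were called, 16.5% as higher and 15.0% as lower, so that 3 of 10 (30.0%) is close to the share of all genes. The groups did not overlap for 6 of the 10 genes, 3 above and 3 below Ctrl, against 68.1% of all genes tested. The median log2 fold change was −0.02 over the 10 genes, −0.20 over the 6 contractile genes and 0.05 over the 4 pericyte genes, and it was −0.01 over all genes tested. In whole hearts, fewer cells of a type and less RNA in each cell cannot be told apart. All levels below are normalized counts, which are counts scaled by TMM factors to the mean library.

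**Figure D1:**
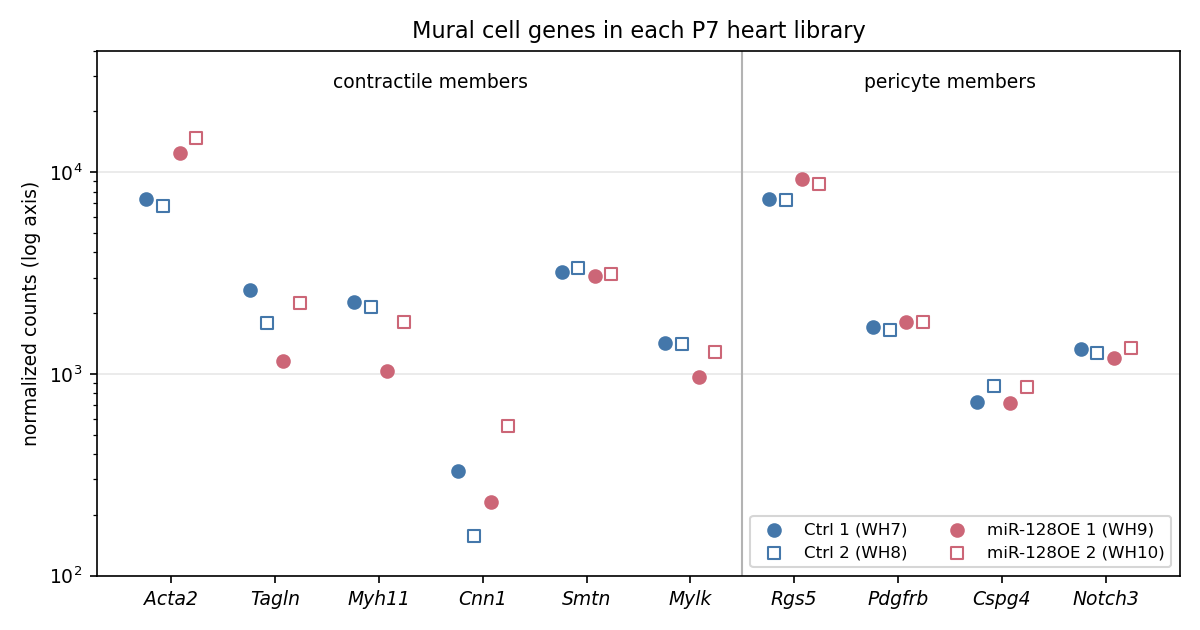
Normalized counts (log axis) of the 6 contractile and 4 pericyte genes in each of the 4 libraries, with Ctrl in blue and *miR-128*OE in red, filled circles for replicate 1 and open squares for replicate 2. *Acta2* and *Rgs5* sit higher in both *miR-128*OE libraries, *Myh11* sits lower in both, and *Tagln* and *Cnn1* spread widely within each group.

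Among the contractile genes, *Acta2* encodes the actin of the thin filament (Entrez Gene 11475, chromosome 19 of GRCm38, 34240336 to 34255585). *Acta2* had 7382 and 6815 normalized counts in Ctrl hearts, against 12481 and 14753 in *miR-128*OE hearts. Both *miR-128*OE libraries were far above both Ctrl libraries, and libraries of one group differed by at most 1.18-fold. Its log2 fold change was 0.94, with a standard error of 0.10 (95% interval 0.71 to 1.17, adjusted p = 0.00029). This was the largest difference of the 10 genes, and it passed the threshold in each of 13 other fits, with a log2 fold change of 0.83 to 1.07 over them.

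*Myh11* encodes the heavy chain of the motor that acts on this actin in smooth muscle (Entrez Gene 17880, chromosome 16, 14194527 to 14292188). *Myh11* had 2272 and 2138 normalized counts in Ctrl hearts, against 1032 and 1800 in *miR-128*OE hearts. Both *miR-128*OE values lay below the Ctrl values, but replicate 1 was far lower than replicate 2, with a 1.74-fold gap between them against 1.06-fold in Ctrl. The log2 fold change of *Myh11* was −0.64, with a standard error of 0.20 (95% interval −1.08 to −0.19, adjusted p = 0.0359). Without *miR-128*OE replicate 1 it was −0.28 (adjusted p = 0.187, edgeR), and without replicate 2 it was −1.08 (adjusted p = 0.00132, edgeR). With DESeq2 on all libraries the adjusted p was 0.247, so that the call rests on replicate 1 and on the test.

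*Mylk* encodes the kinase that phosphorylates the myosin light chain to start contraction (Entrez Gene 107589, chromosome 16, 34745199 to 35002436). *Mylk* had 1429 and 1402 normalized counts in Ctrl hearts, against 970 and 1281 in *miR-128*OE hearts. As with *Myh11*, the *miR-128*OE values lay under those of Ctrl, with replicate 1 the lowest. Its log2 fold change was −0.33 (95% interval −0.60 to −0.06), and the adjusted p was 0.0634 by edgeR, so it did not pass. Over 13 other fits the lowest adjusted p of *Mylk* was 0.00462, from edgeR with no filter on low counts. That fit gave nearly equal standard errors to genes of unlike spread. *Mylk* was under the threshold in 6 of the 13. Its log2 fold change was −0.13 without *miR-128*OE replicate 1 (adjusted p = 0.539, edgeR) and −0.53 without replicate 2 (adjusted p = 0.0232).

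*Tagln*, *Cnn1* and *Smtn* encode transgelin, calponin and smoothelin, which bind actin filaments of smooth muscle. *Tagln* (Entrez Gene 21345, chromosome 9, 45929628 to 45936058) had 2621 and 1798 normalized counts in Ctrl hearts, against 1161 and 2256 in *miR-128*OE hearts. Its groups overlapped, with a 1.94-fold gap between the *miR-128*OE libraries, and its log2 fold change of −0.37 (95% interval −0.96 to 0.21, adjusted p = 0.308, edgeR) did not pass. Without *miR-128*OE replicate 1 it was 0.04, and without replicate 2 it was −0.92. With no filter on low counts it was −0.36 (adjusted p = 0.000555, edgeR). The standard error of *Tagln* was 0.09 in that fit, against 0.26 with the filter. It was 0.09 for *Acta2*, *Myh11* and *Smtn* too, so that p-value takes little account of the spread of *Tagln* itself. *Cnn1* (Entrez Gene 12797, chromosome 9, 22099221 to 22109221) was the least abundant of the 10 genes in counts, with 330 and 157 normalized counts in Ctrl hearts, against 233 and 553 in *miR-128*OE hearts. The libraries of *Cnn1* differed by 2.10-fold within Ctrl and 2.37-fold within *miR-128*OE, more than any other of the 10 genes. Its log2 fold change of 0.66 had an interval of −0.20 to 1.52 (adjusted p = 0.221, edgeR), and it became −0.08 without *miR-128*OE replicate 2. Without Ctrl replicate 1 it was 1.34 (adjusted p = 0.0157, edgeR) and without *miR-128*OE replicate 1 it was 1.16 (adjusted p = 0.042), so single libraries set the value for *Cnn1*. *Smtn* (Entrez Gene 29856, chromosome 11, 3517522 to 3539292) was even across all libraries, at 3184 and 3338 normalized counts in Ctrl hearts, against 3064 and 3147 in *miR-128*OE hearts. Its interval of −0.24 to 0.10 around a log2 fold change of −0.07 (adjusted p = 0.519, edgeR) leaves out changes of the size seen at *Acta2*.

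**Figure D2:**
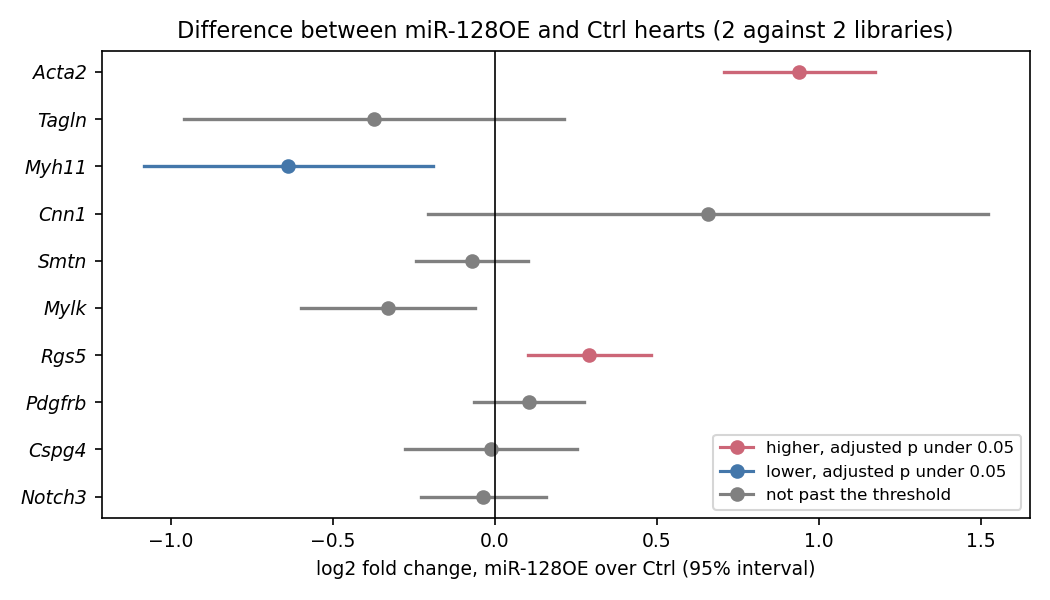
Log2 fold change of *miR-128*OE over Ctrl for the 10 genes, with points for the edgeR estimate and lines for its 95% interval, red for higher, blue for lower and gray for not past an adjusted p of 0.05. The interval of *Acta2* (0.71 to 1.17) lies above 0 and that of *Myh11* (−1.08 to −0.19) below it, while that of *Cnn1* spans −0.20 to 1.52.

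The proportions of the contractile genes, given as a description with no test, also differed between the groups. *Acta2* had 3.25 and 3.19 times the normalized count of *Myh11* in Ctrl hearts, against 12.1 and 8.20 times in *miR-128*OE hearts. *Acta2* made up 42.9% and 43.6% of the summed normalized counts of the 6 contractile genes in Ctrl hearts, against 65.9% and 62.0% in *miR-128*OE hearts. The sum of the other 5 genes was 9836 and 8833 in Ctrl hearts, against 6460 and 9036 in *miR-128*OE hearts, and these groups overlap. Per kilobase of exon, which allows levels to be set side by side, *Acta2* led the 10 genes in Ctrl with a mean of 3232 normalized counts, ahead of *Rgs5* with 1613, *Tagln* with 1111 and *Smtn* with 745. *Pdgfrb* (307) and *Myh11* (290) were close to each other, and *Notch3* (161), *Mylk* (126), *Cnn1* (89.0) and *Cspg4* (66.9) were lowest. The values per kilobase of *Cnn1* in the Ctrl libraries, 121 and 57.3, reach across the levels of *Cspg4* (60.9 and 73.0), so these neighbors do not differ beyond their spread. In *miR-128*OE hearts the mean of *Acta2* per kilobase was 6201 and that of *Myh11* was 186.

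Of the other actins, *Actc1* and *Acta1* rose as *Acta2* did, while *Actg2*, *Actb* and *Actg1* did not pass. These genes were chosen after their values were seen. *Actc1*, the main actin of the cardiac sarcomere, had 42795 and 44068 normalized counts in Ctrl hearts, against 115074 and 104875 in *miR-128*OE hearts, a log2 fold change of 1.34 (adjusted p = 3.35e-05, edgeR). *Acta1*, the skeletal muscle actin, had 517 and 488 against 1070 and 1123, a log2 fold change of 1.12 (adjusted p = 4.93e-05). *Actg2*, the other smooth muscle actin, had 252 and 153 normalized counts in Ctrl hearts, against 144 and 288 in *miR-128*OE hearts, and its log2 fold change of 0.08 (95% interval −0.61 to 0.77) did not pass. The cytoplasmic actins *Actb* and *Actg1* had log2 fold changes of 0.07 (95% interval −0.14 to 0.28) and 0.10 (95% interval −0.10 to 0.30), which did not pass either. Of 1986 windows of 50 bases in the longest *Acta2* transcript, 7 occur letter for letter in a transcript of any other gene. The genes that share most of them are *Actg1* and actin pseudogenes. Only the genes sharing most were listed, so whether *Actc1* or *Acta1* also holds some of these 7 is not known. Reads with mismatches were not followed in this count. Of 12 cardiomyocyte markers, 6 were higher and 2 were lower, where 31.5% of all genes tested were called. The summed level of these markers was 665674 and 720614 normalized counts in Ctrl hearts, against 847926 and 831694 in *miR-128*OE hearts. The part of cardiomyocytes in the change of *Acta2* was not tested.

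**Figure D3:**
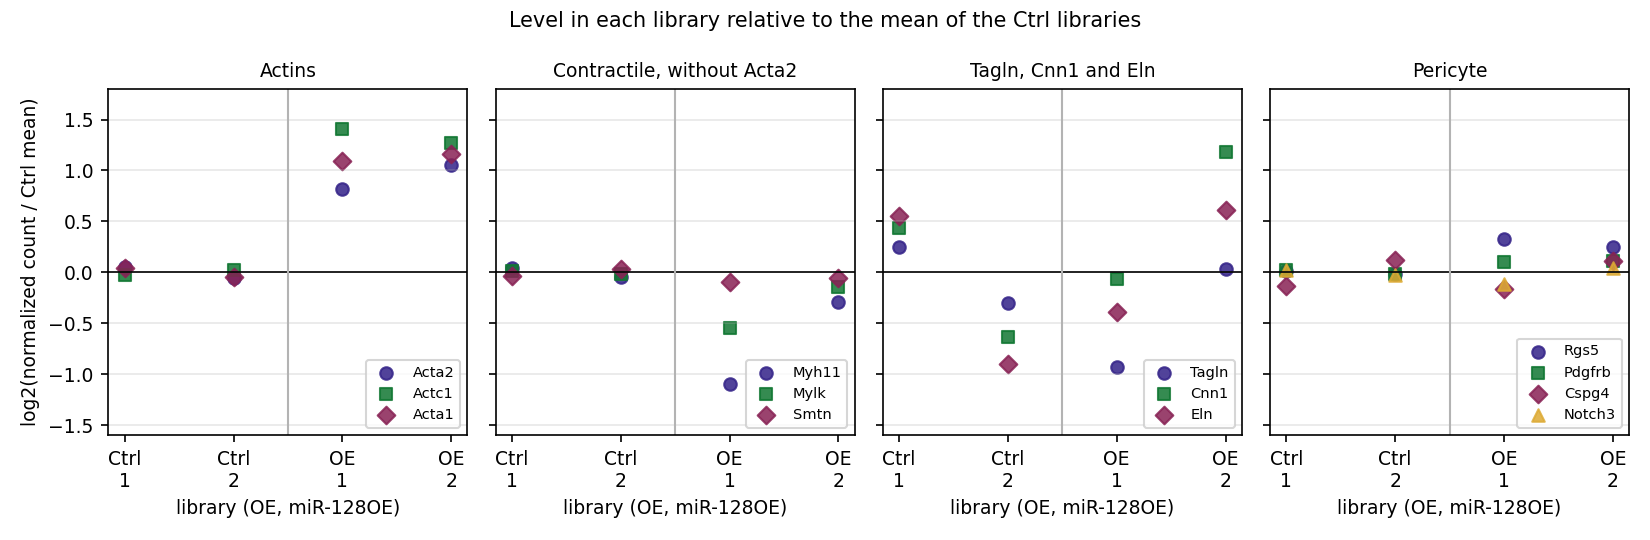
Log2 of the normalized count in each library over the mean of the Ctrl libraries, in 4 panels for actins, other contractile genes, *Tagln* with *Cnn1* and *Eln*, and pericyte genes, with 1 symbol a gene. *Acta2*, *Actc1* and *Acta1* are raised in both *miR-128*OE (OE) libraries, whereas *Tagln*, *Cnn1* and *Eln* are each higher in Ctrl replicate 1 than in Ctrl replicate 2 and higher in *miR-128*OE replicate 2 than in replicate 1.

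The promoters of *Acta2*, *Actc1* and *Acta1* are shown because these actins rose together and because SRF acts through the CArG box, searched on both strands, which read alike for this motif. Promoters of 7 of the 10 genes were in the RefSeq table for GRCm38.p6, and those of *Tagln*, *Myh11* and *Pdgfrb* were not. Of the actins that did not pass, *Actg2* had no promoter there either, and boxes of *Actb* and *Actg1* were not searched for. The boxes therefore cannot be compared between actins that rose and actins that did not. From 250 bases before to 50 after the start site, an exact CArG box was present in 1.81% of 27025 genes, and in 0 of these 7. With 1 base off the pattern allowed, a box was present in 23.8% of genes and in 2 of the 7, *Acta2* and *Cspg4*. Capitals below mark exact boxes and boxes 1 base off, and each run is the 250 bases before the start site, all on the minus strand.
Acta2 (chr19:34255374-34255623): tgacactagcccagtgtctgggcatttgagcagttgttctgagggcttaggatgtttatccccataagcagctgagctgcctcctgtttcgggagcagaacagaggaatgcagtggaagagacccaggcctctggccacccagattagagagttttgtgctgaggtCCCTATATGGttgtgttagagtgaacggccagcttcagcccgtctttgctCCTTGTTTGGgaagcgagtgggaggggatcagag
Actc1 (chr2:114052876-114053125): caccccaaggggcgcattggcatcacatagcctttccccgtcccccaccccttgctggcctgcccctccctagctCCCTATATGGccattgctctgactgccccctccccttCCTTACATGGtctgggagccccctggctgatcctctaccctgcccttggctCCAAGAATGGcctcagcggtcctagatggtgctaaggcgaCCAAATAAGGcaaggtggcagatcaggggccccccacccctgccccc
Acta1 (chr8:123894776-123895025): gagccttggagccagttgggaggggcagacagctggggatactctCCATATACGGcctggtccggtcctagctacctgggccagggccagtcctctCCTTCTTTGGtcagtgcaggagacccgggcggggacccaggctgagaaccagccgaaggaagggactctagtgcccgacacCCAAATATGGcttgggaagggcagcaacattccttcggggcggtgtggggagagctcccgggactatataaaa
The boxes of *Acta2* begin at −84 and −34 from that start site, and both are 1 base off. *Actc1* holds an exact box at −47 and *Acta1* one at −73, besides 3 and 2 boxes that are 1 base off. The first box of *Acta2*, CCCTATATGG, stands letter for letter in the *Actc1* promoter at −175. RefSeq places the outer end of *Acta2* at 34255585, so that part of its window may be transcribed from another start. The window of *Mylk* (chr16:34784700-34784999, plus strand) lies inside that gene, which begins at 34745199, so any start farther out was not searched. Whether SRF is bound at any of these boxes in these hearts was not measured.

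Genes that regulate this program were taken from a list of 16 SRF and myocardin regulators, of which 3 were higher and 1 was lower, and their median log2 fold change was −0.04 against −0.01 over all genes tested. For this list and each list below, the share called over all genes tested is 31.5%. *Srf* itself had 854 and 796 normalized counts in Ctrl hearts, against 1935 and 1887 in *miR-128*OE hearts, a log2 fold change of 1.21 with a standard error of 0.08 (adjusted p = 2.74e-05, edgeR). *Klf4*, which represses smooth muscle genes, rose as well, from 1006 and 1124 to 1929 and 1949 (log2 fold change 0.87). *Fhl2*, a muscle cofactor of SRF, rose from 6662 and 7218 to 11463 and 11140 (log2 fold change 0.70). The 1 lower gene, named after its values were seen, was *Tead3*, which fell from 820 and 886 to 415 and 521 (log2 fold change −0.86). *Myocd*, the partner of SRF, had 383 and 420 normalized counts in Ctrl hearts, against 389 and 382 in *miR-128*OE hearts, and it did not pass (log2 fold change −0.05, 95% interval −0.29 to 0.18). It was added here for its role after its values were seen.

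The wider list of the contractile apparatus and its regulation held 29 tested genes, with 6 higher, 4 lower and a median of 0.01 on the log2 scale. The 4 lower genes, named after their values were seen, were *Tagln3* (log2 fold change −1.49, at low counts), *Ppp1r12b* (−0.48), *Gucy1a1* (−0.39) and *Rock1* (−0.31). The 3 genes with the smallest p-values, given next, were all higher. *Tpm2*, a tropomyosin that lies along actin, rose from 2106 and 1709 normalized counts to 3440 and 4436, a log2 fold change of 1.04 (adjusted p = 0.000613, edgeR). *Vcl*, vinculin of the adhesion sites where filaments end, rose by 0.72 on the log2 scale (1870 and 1706 in Ctrl, 2901 and 2978 in *miR-128*OE libraries). *Cnn3*, a calponin found outside smooth muscle too, rose by 0.39 (2422 and 2148 against 3002 and 3012). These 3 genes are not restricted to smooth muscle.

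In the pericyte genes the differences were small. *Rgs5* (Entrez Gene 19737, chromosome 1, 169655501 to 169695813) had 7404 and 7266 normalized counts in Ctrl hearts, against 9228 and 8739 in *miR-128*OE hearts. Both *miR-128*OE libraries were above Ctrl, and libraries of one group differed by at most 1.06-fold. Its log2 fold change was 0.29, with a standard error of 0.08 (95% interval 0.10 to 0.48, adjusted p = 0.0264, edgeR). The call on *Rgs5* did not hold with upper-quartile factors (adjusted p = 0.0565) or total counts (adjusted p = 0.0901), nor without *miR-128*OE replicate 1 (adjusted p = 0.244) or 2 (adjusted p = 0.114), although its log2 fold change stayed between 0.19 and 0.35.

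*Pdgfrb*, the receptor for PDGF-B (Entrez Gene 18596, chromosome 18, 61045127 to 61085067), had 1704 and 1658 normalized counts in Ctrl hearts, against 1799 and 1819 in *miR-128*OE hearts. The *miR-128*OE libraries lay just above, and the log2 fold change of 0.11 (95% interval −0.06 to 0.27, adjusted p = 0.314, edgeR) did not pass. *Notch3*, the Notch receptor of mural cells (Entrez Gene 18131, chromosome 17, 32120820 to 32166896), had 1323 and 1276 normalized counts in Ctrl hearts, against 1200 and 1338 in *miR-128*OE hearts. *Cspg4*, the proteoglycan known as NG2 (Entrez Gene 121021, chromosome 9, 56865104 to 56899870), had 726 and 871 against 715 and 860. The groups overlapped at both, with log2 fold changes of −0.03 (95% interval −0.23 to 0.16) for *Notch3* and −0.01 (95% interval −0.28 to 0.25) for *Cspg4*. These intervals leave out a change of 1.5-fold for *Pdgfrb*, *Notch3* and *Cspg4* alike. Without *Rgs5*, the summed level of the pericyte genes was 3753 and 3805 in Ctrl hearts, against 3714 and 4018 in *miR-128*OE hearts. The ratio of *Rgs5* to *Pdgfrb*, 4.35 and 4.38 in Ctrl, was 5.13 and 4.80 in *miR-128*OE libraries.

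Other genes enriched in pericytes numbered 25 tested, with 6 higher, 3 lower and a median of 0.07 on the log2 scale. The 3 lower genes, named after their values were seen, were *Colec11* (log2 fold change −0.51), *Agtr1a* (−0.46) and *Gucy1a1* (−0.39). The 3 genes with the smallest p-values, given next, were all higher. *Art3*, an ADP-ribosyltransferase family member, rose from 875 and 753 normalized counts to 1390 and 1348 (log2 fold change 0.74, adjusted p = 0.000524, edgeR). *Ednra*, the endothelin receptor that mediates contraction, rose from 341 and 359 to 577 and 581 (log2 fold change 0.73). *Mcam*, an adhesion molecule of mural cells and endothelium, rose from 2160 and 2287 to 2983 and 3123 (log2 fold change 0.46). Several genes of this list are also made by cardiomyocytes or endothelium, and which cells the differences came from was not measured.

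**Figure D4:**
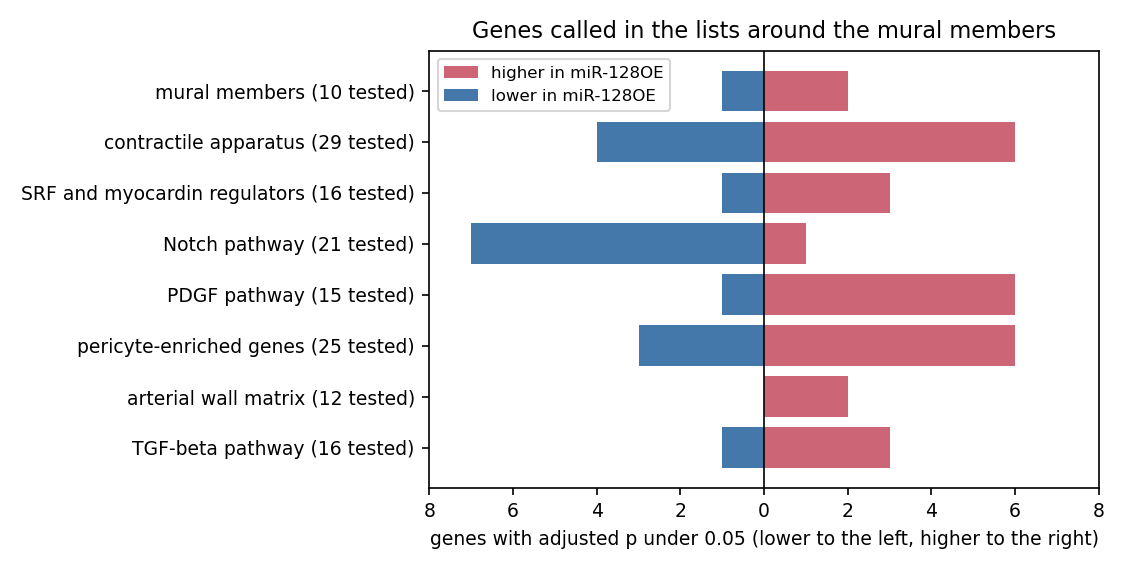
Number of genes with an adjusted p under 0.05 in the 10 mural genes and 7 lists around them, lower in *miR-128*OE to the left in blue and higher to the right in red, with the number tested in brackets. The Notch list has 7 lower and 1 higher genes, and the PDGF list 1 lower and 6 higher. Over all genes tested, 15.0% were lower and 16.5% were higher.

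The ligands and partners of the pericyte receptors were described from lists of their pathways, which are also active in other heart cells. Of 15 genes of the PDGF pathway, 6 were higher and 1 was lower, and their median log2 fold change was 0.24 against −0.01 over all genes tested. *Plat*, tissue plasminogen activator, which can activate PDGF-C, rose from 558 and 513 normalized counts to 844 and 826 (log2 fold change 0.64). *Furin*, a protease that processes PDGF ligands, rose from 1070 and 855 to 1513 and 1358 (log2 fold change 0.57). *Stat3*, a transcription factor downstream of many receptors, rose from 1106 and 1022 to 1355 and 1378 (log2 fold change 0.36). The next genes were named after their values were seen. The ligand *Pdgfb* rose from 1033 and 1098 to 1234 and 1344 (log2 fold change 0.28), while *Pdgfa*, *Pdgfc* and *Pdgfd* did not pass. The 1 lower gene was *Src* (log2 fold change −0.56). Of 21 genes of the Notch pathway, 1 was higher and 7 were lower, although the median log2 fold change was 0.01. Over all genes tested, 31.5% were called, 16.5% as higher and 15.0% as lower. *Notch2*, which mural cells carry beside *Notch3*, fell from 847 and 906 to 575 and 564 (log2 fold change −0.62, adjusted p = 0.000925, edgeR). *Hey2*, a target of Notch that is abundant in ventricular myocardium, fell from 272 and 253 to 149 and 143 (log2 fold change −0.85). *Mfng*, which modifies Notch receptors, fell from 459 and 473 to 290 and 308 (log2 fold change −0.64). *Hey1*, picked with its values already known, was the 1 higher gene of this list. It rose from 500 and 414 to 559 and 626 (log2 fold change 0.37, adjusted p = 0.0384, edgeR). By DESeq2 0 genes of the Notch list were higher. *Heyl*, *Nrarp* and *Hes1*, picked in the same way, had log2 fold changes of 0.26, 0.25 and 0.07 and did not pass. Of 16 genes of the TGF-beta pathway, 3 were higher and 1 was lower, and the median was −0.01 on the log2 scale. The inhibitors *Smad7* and *Smad6* rose by 0.81 and 0.49 on the log2 scale, and *Ltbp3*, which stores latent TGF-beta in the matrix, differed by −0.43 on the log2 scale (adjusted p = 0.0284, edgeR).

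Of 12 listed genes of the arterial wall matrix, *Eln* varied most within each condition. *Eln*, the elastin that smooth muscle cells of large arteries make, was chosen once its values were known, and it had 64695 and 23613 normalized counts in Ctrl hearts, against 33773 and 67667 in *miR-128*OE hearts, so its groups overlapped (log2 fold change 0.20, 95% interval −0.72 to 1.12). Ctrl replicate 1 and *miR-128*OE replicate 2 were high in *Eln* and the other libraries were low. Within each group the same library was the higher one for *Acta2*, *Tagln*, *Myh11*, *Cnn1*, *Mylk*, *Pdgfrb* and *Notch3*. *Smtn* and *Cspg4* did not keep this order in Ctrl, nor did *Rgs5* in *miR-128*OE. In Ctrl the gap was only 1.02-fold for *Mylk*, 1.03-fold for *Pdgfrb*, 1.04-fold for *Notch3*, 1.06-fold for *Myh11* and 1.08-fold for *Acta2*. In *miR-128*OE it was 1.01-fold for *Pdgfrb*. The share of all genes tested that keep this order was not counted. The summed level of the 12 arterial wall matrix genes was 92907 and 44077 normalized counts in Ctrl hearts, against 61443 and 97161 in *miR-128*OE hearts. *Eln* is in that sum and is the largest part of it in each library, so the sum does not show that the other genes varied with *Eln*. In that list 2 genes were higher, the microfibril genes *Mfap5* (log2 fold change 0.53) and *Mfap4* (log2 fold change 0.83), and 0 were lower by edgeR, also at an unadjusted p under 0.05 and by DESeq2. *Efemp2* came next in that list, with a log2 fold change of −0.27 (adjusted p = 0.163, edgeR), and the median of its 12 genes was 0.13. The 12 atrial myocyte markers also differed between libraries of one group, with summed levels of 74660 and 10894 normalized counts in Ctrl hearts, against 29485 and 36526 in *miR-128*OE hearts. By the quasi-likelihood test and by DESeq2 0 of these atrial genes were called, and 1 was lower at an unadjusted p under 0.05 and by the likelihood ratio and exact tests of edgeR. *Acta2* was 1.08-fold higher in the *Eln*-rich than in the *Eln*-poor library of Ctrl and 1.18-fold higher in that of *miR-128*OE. The part of large vessels and atria carried with the hearts in the values of the mural genes was not tested.

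Markers of the cells next to mural cells gave mixed calls, where 31.5% of all genes tested were called. Of 12 endothelial markers 2 were higher and 2 were lower, and their summed level was 28695 and 28902 normalized counts in Ctrl hearts, against 29618 and 28690 in *miR-128*OE hearts. Of 12 fibroblast markers 3 were higher and 1 was lower, with sums of 119721 and 78369 against 106185 and 115015. Of 9 epicardial markers 0 were called by the quasi-likelihood test and by DESeq2, with 1 higher and 1 lower at an unadjusted p under 0.05, and 1 was called lower by the likelihood ratio and exact tests of edgeR. Of 10 macrophage markers 0 were called by the quasi-likelihood test and by DESeq2, with 2 lower at an unadjusted p under 0.05 and 2 called lower by the likelihood ratio and exact tests. Of the 10 mural genes, *Tagln*, *Smtn*, *Mylk* and *Notch3* overlap annotated exons on the opposite strand, and since the handling of strand in the counting was not stated, reads of those partners cannot be told apart from theirs. For *Myh11*, 26 of 6500 windows of 50 bases also occur in the related myosins *Myh9* and *Myh10*.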

How the data were processed

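RNA-seq of P7 hearts (2 Ctrl and 2 *miR-128*OE libraries) was used from the raw counts per gene that the authors deposited. Per the paper's methods, low-quality reads were removed, the rest were aligned to mm10 with TopHat2, and reads on known genes were counted with Bioconductor packages; the gene models, strand handling and rule for shared reads are not given in the sources used here. Groups were taken from the sample labels. Of 24454 Entrez identifiers, the 10 members and the genes of the other lists were matched by symbol in RefSeq's gene table for GRCm38.p6, and exon lengths and 3′UTRs came from GENCODE M21.

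Counts were tested with the quasi-likelihood test of edgeR 4.0.16 in R 4.3.3, the paper's tool, with filterByExpr defaults (minimum count 10) and TMM factors. Adjustment of p-values followed Benjamini and Hochberg, across the 14266 genes tested, and 0.05 was the threshold. The biological coefficient of variation was 8.78% and the prior degrees of freedom were 7.44. Standard errors were taken as the log2 fold change over the square root of F. Libraries of a group differed by more than sampling noise (chi-square per degree of freedom 11.7 in Ctrl and 5.55 in *miR-128*OE), so each was counted as 1 sample. Library totals were 8096870 to 14359838 counts, and 3 counts, the floor for detection, cover counting error only, since PCR reads without molecular identifiers are not independent molecules. The test was checked on simulated counts. The members and lists were chosen with earlier results of these data known. The genes named are the 10 members and, in each pathway or mural list, the 3 with the smallest p-value; any other gene is stated as chosen once its values were known. Alternatives were the likelihood ratio and exact tests, DESeq2 1.42.0, RLE, upper-quartile or total-count scaling, no filter or a minimum of 50 counts, a fold of 1.5, a loess offset (span 0.5) for GC content and gene length, and each library left out. Summaries and plots used Python 3.11.15.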

Additional observations from a re-analysis of the deposited data

How the results depend on the processing

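*Acta2* was higher under each alternative. The call on *Myh11* was lost with DESeq2, with the offset for GC content and length (adjusted p = 0.0631) and without *miR-128*OE replicate 1, and that on *Rgs5* with upper-quartile factors, total counts and without either *miR-128*OE library. Of the 10 genes, those called higher numbered 1 with upper-quartile factors, total counts or a 1.5-fold minimum, 3 with no filter on low counts, and 1 to 3 with a library left out. Those called lower numbered 0 with DESeq2 or the GC and length offset, 2 with the likelihood ratio test, the exact test, upper-quartile factors or total counts, 3 with no filter on low counts, and 0 to 3 with a library left out. With a library left out, the log2 fold change ranged from −0.92 to 0.039 for *Tagln*, which turned without *miR-128*OE replicate 1, from −0.080 to 1.34 for *Cnn1*, which turned without *miR-128*OE replicate 2, from −0.14 to 0.13 for *Cspg4* and from −0.10 to 0.055 for *Notch3*. *Cspg4* turned without Ctrl replicate 2 (0.12) or *miR-128*OE replicate 1 and with the GC and length offset (0.11), and *Notch3* without *miR-128*OE replicate 1 and with the offset (0.045); none of these reversed values passed. Over all genes, those higher numbered 935 with a 1.5-fold minimum and 897 to 2654 with a library left out, against 2347, and those lower numbered 1410 with DESeq2, 1187 with a 1.5-fold minimum and 667 to 2384 with a library left out, against 2143. The fits without 1 library have 1 sample in a group, which is assumed to vary like the other group. With no filter on low counts, genes of unlike spread had nearly equal standard errors, 0.09 for both *Tagln* and *Smtn* against 0.26 and 0.08 with the filter. Calls from that fit therefore take little account of the spread of each gene. With total counts the median over all genes went from −0.01 to −0.11 on the log2 scale and the share of calls that were higher from 52.3% to 35.3%. Of 130 values for single genes over the alternatives, 105 stayed on the same side of 0 and of the threshold. Apart from fewer samples in the fits without a library, the cause of these changes was not tested. No paired analysis was possible because the labels link no Ctrl library to a *miR-128*OE library. The replicate numbers used here follow the order of the library names within each group. With 2 libraries a group, an exact permutation test of 1 gene could not pass the threshold.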
